A study of Mus musculus with 12 samples.

Results

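The genes described here encode the proteins of the cytosolic ribosome in mouse brain tissue. They were taken by name: every gene listed in both tissue tables whose symbol is Rpl or Rps followed by a number, with an optional final A, X or L, plus Rplp0, Rplp1, Rplp2 and Rpsa. The rule found 79 of 17973 genes, of which 47 belong to the large subunit and 32 to the small subunit. The study measured poly(A)+ RNA in the dentate gyrus (DG) and the subventricular zone (SVZ), each labelled as neural stem and progenitor cells with the cells around them. In each tissue 3 KO libraries of the genotype hGFAP/+;Dpy30F/- were set against 3 control libraries of the genotype hGFAP/+;Dpy30F/+. All 4 groups therefore carried the hGFAP/+ allele and 1 Dpy30F allele, and KO differed from control in having Dpy30- in place of the wild-type allele. The labels do not spell out hGFAP; under that name a Cre line driven by the human GFAP promoter is in wide use, which acts in radial glia and the cells that descend from them, so other cells of the tissue keep their floxed allele. Libraries are called a, b and c within a group, and these letters pair nothing between groups. Nothing in the labels says that libraries of a group came from separate animals, so a p-value reflects only how far these particular libraries varied, and that variation may be technical.

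The cytosolic ribosome joins a small subunit, which reads the mRNA, to a large subunit, which forms the peptide bond. Each subunit is built on ribosomal RNA with many small, mostly basic proteins that are made in near-equal numbers. In mammals the mRNAs of these proteins begin with a run of pyrimidines at their first base, the terminal oligopyrimidine (TOP) start, through which the mTOR pathway and the RNA-binding protein Larp1 control their translation and stability. Ribosome production is high in dividing progenitors and falls as neurons mature. Ribosomal protein genes are also among the genes with the most processed copies in mammalian genomes, made by reverse transcription of their mRNAs.

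Levels are given in FPKM, a read count scaled by transcript length and library size, summed over a gene's transcripts. An estimate of depth came from the steps between low values. It put 1 FPKM over 1 kilobase at 48.5 to 65.8 reads in the DG KO libraries, against 26.7 to 42.2 in DG control libraries, and at 34.1 to 50.1 in SVZ KO libraries, against 36.9 to 46.0 in SVZ control libraries. Dpy30, whose protein is a core part of the SET1/MLL complexes that methylate lysine on histone H3, had 6.22, 6.89 and 5.68 FPKM in DG KO libraries, against 8.43, 8.38 and 10.12 FPKM in DG control libraries (exact two-sided permutation p = 0.1, the smallest that 3 against 3 libraries can give). In the SVZ it had 8.83, 5.04 and 4.87 FPKM in KO libraries, against 7.73, 8.25 and 9.43 FPKM in control libraries (exact two-sided permutation p = 0.3). By Dpy30 the library labelled SVZ KO a therefore lay within the range of its controls. The group results for the SVZ are also given without it. Markers of myelinating oligodendrocytes summed to 4032, 286 and 217 FPKM in SVZ KO libraries a, b and c, against 3077 to 6223 FPKM in SVZ control libraries. Astrocyte markers summed to 759, 473 and 497 FPKM in these KO libraries, against 801 to 1074 FPKM in SVZ control libraries. All 3 SVZ KO libraries lay below all SVZ control libraries there. The same held for striatal markers (500, 419 and 428 FPKM, against 548 to 717 FPKM). It also held for endothelial markers (62.9, 53.7 and 64.3 FPKM, against 66.5 to 92.2 FPKM). For neuroblast and oligodendrocyte precursor markers, library a lay within its controls and libraries b and c below them.

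A pyrimidine run near the start was found in some of these genes and not in others. The windows below run from 10 bases before to 19 bases after the RefSeq start base (GRCm38.p6), 5′ to 3′ on the gene's strand, and capitals mark a run of at least 8 bases made only of C and T. The first 4 have such a run. Among these are Rpl35, with the largest DG difference, and Rps27, whose level was far below that of its copy. The others, Rplp2 and Rpl18, passed the DG test. Rpl23 and Rps19, which also passed, have none in this window. The windows lie at chr2:39005112-39005141 on the minus strand (Rpl35), chr3:90213629-90213658 on the minus strand (Rps27), chr7:141447641-141447670 on the plus strand (Rplp2), chr7:45718061-45718090 on the plus strand (Rpl18), chr11:97782420-97782449 on the minus strand (Rpl23) and chr7:24884582-24884611 on the plus strand (Rps19, the first of 3 starts listed).
Rpl35: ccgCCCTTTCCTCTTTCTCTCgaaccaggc
Rps27: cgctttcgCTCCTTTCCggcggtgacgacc
Rplp2: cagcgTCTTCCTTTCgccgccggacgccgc
Rpl18: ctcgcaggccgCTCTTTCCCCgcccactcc
Rpl23: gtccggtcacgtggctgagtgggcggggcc
Rps19: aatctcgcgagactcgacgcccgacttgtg

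RefSeq start windows were at hand for 57 of the 79 genes. Within 25 bases on either side of the start, 31 of the 57 (54.4%) held a run of at least 8 C or T on the gene's own strand, against 6014 of 27025 genes of all kinds (22.3%). On the other strand such a run was in 5 of the 57 (8.77%), against 6581 of the 27025 genes (24.4%). The letters were searched on both strands without allowance for other motifs that overlap them. Genes with a run had a median log2 difference between DG KO and DG control of 0.56, and the 26 genes without one had 0.58. The 2 sets differed by little next to the spread among the genes. A run within 25 bases of a listed start is not the same as a TOP start at the first base, and runs under 8 bases were not counted. These medians therefore cannot say whether a TOP start matters.

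Processed copies bear on every value of these genes. Among the other rows of the tables, 277 genes matched the coding part of a ribosomal protein gene at 85% identity or more over at least 70% of its length or by name, 265 of them annotated as processed pseudogenes, and 73 of the 79 genes had at least 1 such copy. Rps27, which encodes a zinc-finger protein of the small subunit, and its copy Rps27rt show how alike they can be. All 255 coding bases were identical, and the gene has 3 exon junctions there where the copy has none. Coding bases 86 to 145 are shown from GENCODE M21 (GRCm38), for Rps27 from chr3:90213015-90213222 across an intron and for Rps27rt from chr9:114982563-114982622, both on the minus strand. Capitals mark the bases on either side of the junction in Rps27.
Rps27: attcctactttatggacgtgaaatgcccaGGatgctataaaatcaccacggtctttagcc
Rps27rt: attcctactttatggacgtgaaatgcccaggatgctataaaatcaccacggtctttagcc
Rpl23, which passed the DG test, differed from its copy Gm9794 at 1 of 423 coding bases (C253T, counted from the first coding base, Rpl23 first), marked in capitals in coding bases 223 to 282. The Rpl23 stretch lies within chr11:97778323-97781337 across an intron and the Gm9794 stretch at chr6:66875462-66875521, both on the minus strand.
Rpl23: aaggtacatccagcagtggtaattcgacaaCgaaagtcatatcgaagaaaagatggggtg
Gm9794: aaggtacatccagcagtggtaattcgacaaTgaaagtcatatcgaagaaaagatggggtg
By sequence, a read from within the stretch of Rps27 fits both places equally well, and one from the stretch of Rpl23 differs between them by at most 1 base, so the split of reads between a gene and its copies is uncertain for most of the 79 genes.

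In the DG, ribosomal protein genes stood higher in KO than in control libraries as a group. Their summed level was 4746, 5734 and 6142 FPKM in DG KO libraries a, b and c, against 3316, 3573 and 3969 FPKM in DG control libraries. Every KO library was above every control library, and the ratio of means was 1.53. As a share of the summed FPKM of all genes, the 79 genes made up 1.61% ± 0.18 in DG KO and 1.11% ± 0.08 in DG control (SD, n = 3 each). In bulk tissue, more cells of a type rich in these mRNAs and more of the mRNAs per cell cannot be told apart.

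**Figure D1:**
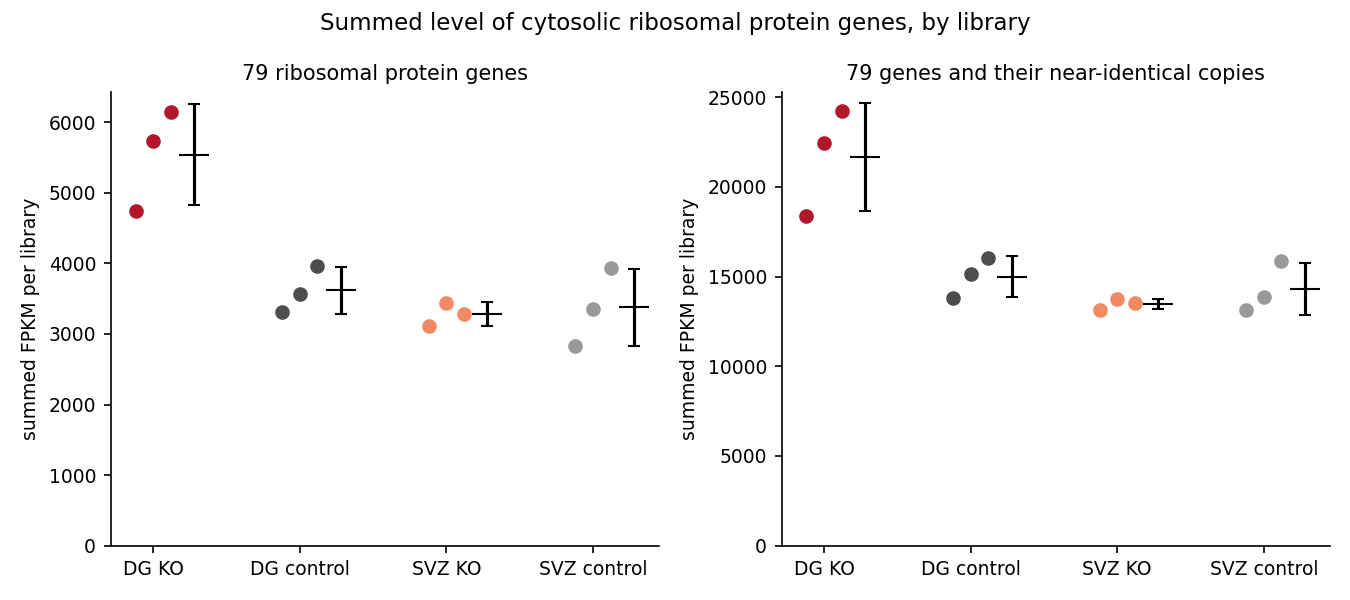
Summed FPKM of the 79 ribosomal protein genes (left) and of these genes with their near-identical copies (right) in each library, by group; bars give the mean and SD of 3 libraries. The DG KO libraries lie above the DG control libraries in both panels, and the SVZ groups overlap; each tissue was scaled apart.

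Gene by gene, 77 of the 79 had a positive DG difference on the log2(FPKM + 1) scale, with a median of 0.56, against a median of 0.09 over all 15442 genes tested, of which 65.3% were positive. All 79 passed the filter on low values in both tissues. With limma and Benjamini-Hochberg adjustment over all genes tested, 7 of the 79 rose in DG KO at an adjusted p under 0.05 (among them Rpl18, Rpl23, Rps19, Rpl7 and Rplp2), where 0.337% of all genes rose. None of the 79 fell, where 0.363% of all genes fell, and at an unadjusted limma p under 0.05 the count was 64 higher and 0 lower, where 26.5% of all genes lay under it in either direction. All KO libraries lay above all control libraries for 64 of the 79 genes, where this held for 25.9% of all genes tested, and below them for 0 of the 79, where this held for 7.83%. The balance of all genes moved with the scaling: 52 rose and 56 fell as scaled by the authors, 32 rose and 99 fell after median centring, and 46 rose and 90 fell after quantile normalization. Of the 79, 7 and 8 rose under these 2 scalings and 0 fell. By subunit, the median difference was 0.52 over 47 large-subunit genes, of which 5 rose, and 0.59 over 32 small-subunit genes, of which 2 rose; whether the subunits differ was not tested. The ratio of summed large-subunit to summed small-subunit FPKM was 1.36 ± 0.04 in DG KO and 1.41 ± 0.06 in DG control (SD, n = 3 each).

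Among large-subunit genes, Rpl18 (chromosome 7, 45715457 to 45720836, plus strand, GRCm38) had the smallest standard error of the 7. It had 45.9, 42.8 and 42.7 FPKM in DG KO libraries, against 27.7, 25.7 and 26.8 FPKM in DG control libraries. The groups were far apart next to their spread, with a log2 difference of 0.69 (SE 0.07, limma adjusted p = 0.034). Summed with its copies, which held 85.4% of the DG level, Rpl18 had a log2 difference of 0.52 (limma adjusted p = 0.063). Rpl23 (chromosome 11, 97777527 to 97782437, minus strand) encodes a protein at the face of the large subunit that meets the small one, and it can also bind Mdm2, the ligase that degrades p53. It had 25.3, 21.3 and 23.4 FPKM in DG KO libraries, against 11.5, 9.39 and 11.6 FPKM in DG control libraries, a log2 difference of 1.04 (SE 0.11, limma adjusted p = 0.034). All KO values were higher than any control value. Summed with its copy Gm9794, which held 93.7% of the DG level, Rpl23 had a log2 difference of 0.57 (limma adjusted p = 0.084).

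Rpl7 (chromosome 1, 16101295 to 16104662, minus strand), a large-subunit protein that contacts ribosomal RNA, had 60.8, 61.7 and 72.6 FPKM in DG KO libraries, against 36.9, 39.2 and 40.3 FPKM in DG control libraries (log2 difference 0.73, SE 0.09, limma adjusted p = 0.042). Library c of the KO group was the highest, and the groups did not overlap. Summed with its copies, which held 64.6% of the DG level, Rpl7 had a log2 difference of 0.56 (limma adjusted p = 0.074).

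The stalk of the large subunit, built from Rplp0 and dimers of Rplp1 and Rplp2, draws in the elongation factors that drive each round of translation. Rplp2 (chromosome 7, 141447370 to 141451585, plus strand) rose, with 15.5, 14.04 and 17.5 FPKM in DG KO libraries, against 9.16, 8.95 and 9.26 FPKM in DG control libraries (log2 difference 0.72, SE 0.09, limma adjusted p = 0.043). Rplp0, the base of the stalk (chromosome 5, 115559467 to 115563727, plus strand), had 222, 262 and 243 FPKM in DG KO libraries, against 141, 146 and 165 FPKM in DG control libraries. Its log2 difference of 0.68 (SE 0.10) fell just short of the threshold (limma adjusted p = 0.052), and it passed with a minimum of 2 FPKM, with quantile normalization or from its most abundant transcript alone. Rplp1, the second most abundant of the 79, had 290, 372 and 427 FPKM in DG KO libraries, against 202, 239 and 238 FPKM in DG control libraries, with non-overlapping groups (log2 difference 0.66, SE 0.16, limma adjusted p = 0.077).

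Of the small subunit, Rps19 rose. In humans, mutations that inactivate an allele of this gene cause Diamond-Blackfan anaemia. Rps19 (chromosome 7, 24884371 to 24889806, plus strand) had 30.7, 31.7 and 35.6 FPKM in DG KO libraries, against 19.0, 18.1 and 20.9 FPKM in DG control libraries (log2 difference 0.73, SE 0.09, limma adjusted p = 0.042). Summed with its copies, which held 88.9% of the DG level, Rps19 had a log2 difference of 0.59 (limma adjusted p = 0.115). Rpsa, a small-subunit protein also described as a laminin receptor, had 101, 132 and 193 FPKM in DG KO libraries, against 76.4, 101 and 93.9 FPKM in DG control libraries. Its lowest KO value and highest control value were nearly the same, and it did not pass (log2 difference 0.60, SE 0.24, limma adjusted p = 0.17).

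**Figure D2:**
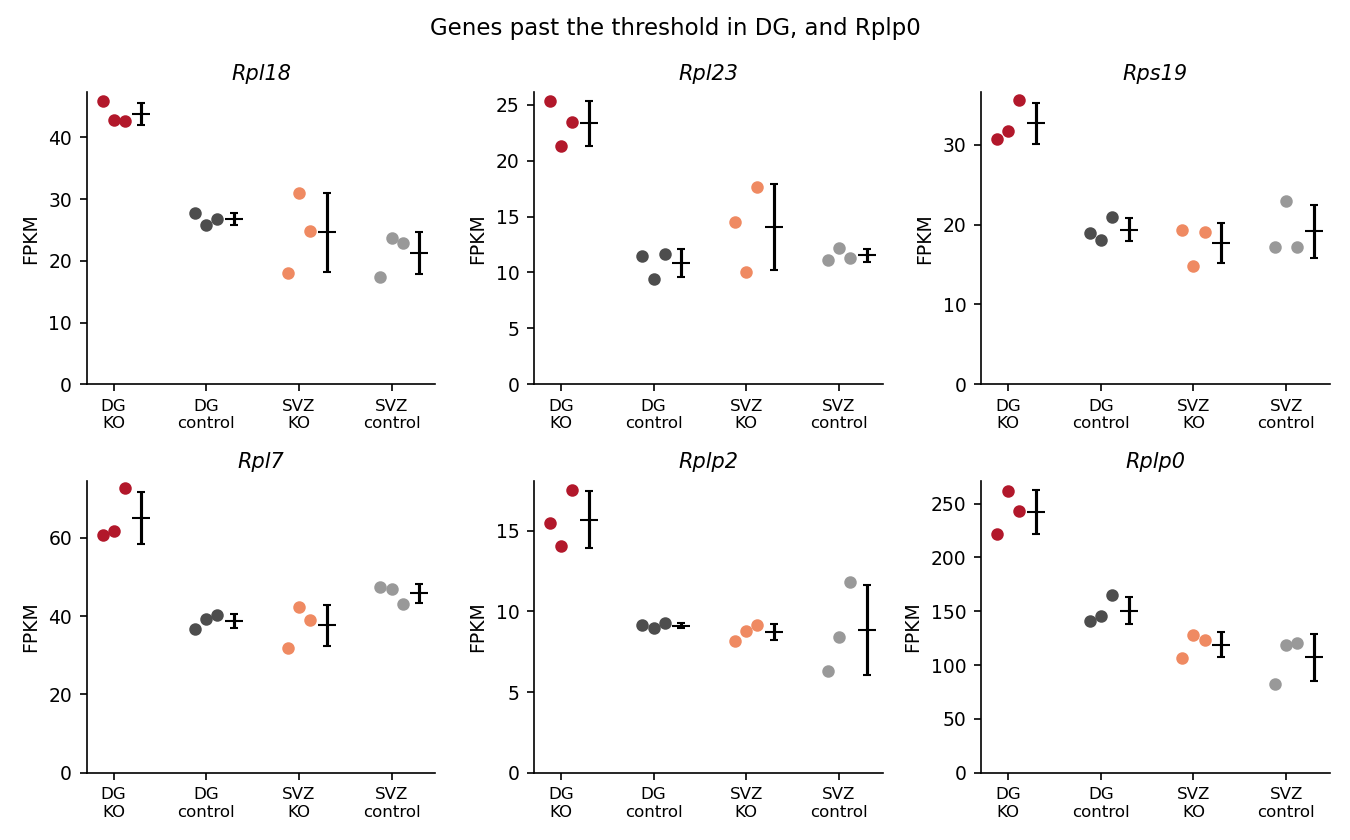
FPKM per library of 5 of the 7 genes that rose in DG KO and of Rplp0, by group; bars give the mean and SD of 3 libraries. In each panel the DG KO libraries lie above all DG control libraries, while SVZ KO and SVZ control values overlap for all but Rpl7, whose SVZ KO values lie below all SVZ control values.

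The calls rested on all 6 DG libraries together. With any 1 DG library left out, 0 of the 79 passed, with lowest limma adjusted p-values of 0.054 to 0.17. Over all genes 0% rose in each of these fits and at most 0.0194% fell, so calls were lost across all genes. The median difference of the 79 stayed between 0.47 and 0.65. Library a was the lowest of the DG KO libraries for 53 of the 79 genes, and library c the highest of the DG control libraries for 57. By Xist, the RNA of the inactive X chromosome, these same 2 libraries came from female mice and the other 4 DG libraries from male mice. With 1 female library in each DG group, a term for sex cannot change the estimated differences. The median of 0.56 and the 77 positive were therefore fixed under that term, and only the errors could change. With it 0 of the 79 passed (lowest limma adjusted p 0.064), while over all genes 0 rose and 3 fell.

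The largest DG difference belonged to a gene of low level. Rpl35, a protein near the exit of the peptide tunnel, had 10.8, 4.19 and 15.2 FPKM in DG KO libraries, against 2.85, 2.23 and 2.83 FPKM in DG control libraries. The KO values spread widely, and the log2 difference of 1.46 (SE 0.39) did not pass (limma adjusted p = 0.089). Rps28 had 6.36, 21.8 and 22.8 FPKM in DG KO libraries, against 9.98, 4.30 and 5.91 FPKM in DG control libraries, with KO library a inside the control range (limma adjusted p = 0.21). At the other end of the level scale, Rpl41, which encodes the shortest protein of the ribosome and had the highest mean of the 79 (493 FPKM), had 571, 748 and 794 FPKM in DG KO libraries, against 443, 482 and 490 FPKM in DG control libraries (log2 difference 0.56, SE 0.15, limma adjusted p = 0.089). Rps3, which sits where mRNA enters the small subunit, averaged 273 ± 24.5 FPKM in DG KO and 202 ± 15.8 FPKM in DG control (SD, n = 3 each; log2 difference 0.44, SE 0.11, limma adjusted p = 0.079).

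Paralogs were mixed. Rps4l was the member with the lowest DG difference and had the highest SVZ difference. It had 11.9, 9.10 and 7.45 FPKM in DG KO libraries, against 15.9, 7.52 and 8.42 FPKM in DG control libraries, and 4.62, 7.30 and 6.57 FPKM in SVZ KO libraries, against 2.45, 4.89 and 5.47 FPKM in SVZ control libraries. The groups overlapped in both tissues (limma adjusted p = 0.84 in the DG and 0.45 in the SVZ). Its X-linked counterpart Rps4x averaged 91.8 ± 16.4 FPKM in DG KO and 60.5 ± 8.74 FPKM in DG control, without overlap (SD, n = 3 each; limma adjusted p = 0.096). Rps27l, a p53 target in human cells, averaged 12.1 ± 2.07 FPKM in DG KO and 8.26 ± 0.98 FPKM in DG control (SD, n = 3 each; limma adjusted p = 0.097). Rpl6 and Rpl6l had nearly the same DG difference, 0.37 each on the log2 scale (limma adjusted p = 0.065 and 0.071).

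Most of the signal that matched a ribosomal protein mRNA lay in copy rows rather than in the rows of the genes themselves. Of the level of a gene and its copies together, the copies held 74.4% ± 0.25 in DG KO and 75.9% ± 0.57 in DG control (SD, n = 3 each), and they held over 50% for 64 of the 79 genes and over 90% for 26. The extremes were the 3 genes of lowest level. Rps27 averaged 1.12 ± 0.05 FPKM in DG KO and 1.17 ± 0.16 FPKM in DG control, while its copy Rps27rt averaged 325 FPKM in DG KO and 226 FPKM in DG control. Rpl9 and Rps13 had means of 1.26 and 1.57 FPKM over all libraries, and 275 and 139 FPKM once their copies were added. The transcript that GENCODE M21 marks as principal was absent from the tables for 6 genes, among them Rps27 and Rpl9, and present for 71 of the 77 genes with such a mark.

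Adding the copies drew the 79 genes together. Their mean levels over all libraries spanned 1.21 to 493 FPKM from their own rows, with 10 genes between 100 and 400 FPKM, and 7.63 to 671 FPKM with copies, with 67 genes in that band. Ratios of DG KO to DG control means from own rows ran from 0.89 (Rps4l) to 3.83 (Rpl35), with quartiles of 1.36 and 1.70. With copies they ran from 0.89 (Rps4l) to 1.81 (Rpl32), with quartiles of 1.39 and 1.51. Rpl35 is an example: with its copies it had 314, 388 and 399.5 FPKM in DG KO libraries, against 230, 229 and 258 FPKM in DG control libraries. Rps27, whose own rows showed no difference (limma adjusted p = 0.85), had 265, 338 and 375 FPKM with its copy in DG KO libraries, against 205, 237 and 240 FPKM in DG control libraries.

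With copies, the summed level was 18369, 22438 and 24243 FPKM in DG KO libraries, against 13788, 15137 and 16049 FPKM in DG control libraries, a ratio of 1.45. The median log2 difference was 0.53, and 78 of the 79 genes were positive. The SD of the log2 differences among genes was 0.12, against 0.29 from own rows. All KO libraries lay above all control libraries for 78 of the 79, where this held for 25.4% of all genes in that fit, and below them for 0, where this held for 7.97%. Of the 79, 77 had an unadjusted limma p under 0.05, where 26.1% of all genes did, and 1, Rplp2, rose at an adjusted p under 0.05 (0.045), where 0.185% of all genes rose and 0.277% fell. Rplp2 had no copy in the count, and its mean over all libraries was 10.6 FPKM, against 259 FPKM for its dimer partner Rplp1; whether some of its reads were given to other genes was not tested. The addition of copies was chosen after the data were seen.

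**Figure D3:**
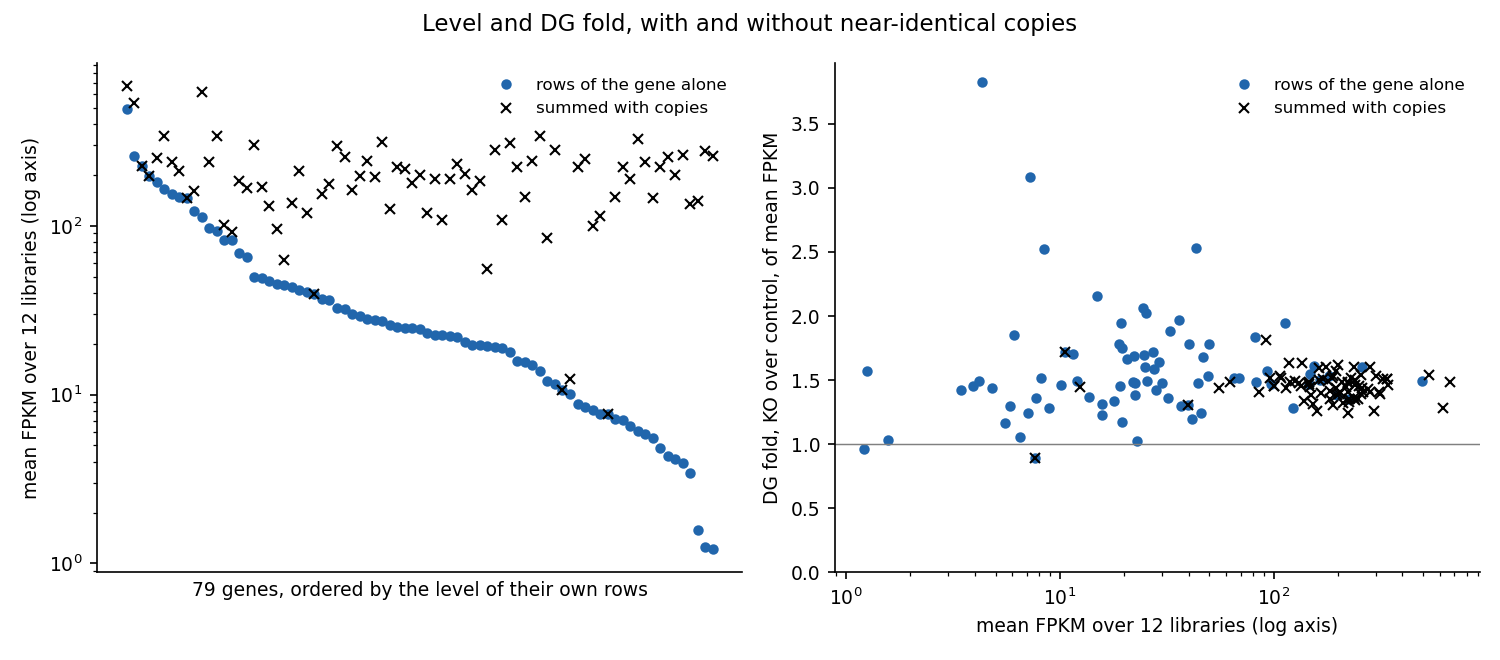
Left, mean FPKM of each of the 79 genes over 12 libraries (log axis), from its own rows (circles) and with near-identical copies (crosses), ordered by the level of its own rows; right, ratio of DG KO to DG control mean FPKM against that mean (log axis). With copies, 67 genes lie between 100 and 400 FPKM, and the ratios gather near 1.45.

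In the SVZ no difference in the same direction was seen. The summed level was 3114, 3446 and 3283 FPKM in SVZ KO libraries, against 2837, 3352 and 3937 FPKM in SVZ control libraries, and the KO values lay inside the control range (ratio of means 0.97). With copies it was 13141, 13739 and 13526 FPKM in SVZ KO libraries, against 13110, 13872 and 15891 FPKM in SVZ control libraries. None of the 79 genes passed with limma in the SVZ (lowest adjusted p 0.37, 0 higher and 6 lower at an unadjusted p under 0.05, where 12.6% of all genes lay under it in either direction), where 0.0066% of all 15149 genes rose and 0% fell. The median difference was -0.03, against 0.03 over all genes, and 30 of the 79 were positive. All KO libraries lay below all control libraries for 14 of the 79, where this held for 7.79% of all genes, and above them for 0, where this held for 7.88%. With copies, 0 of the 79 passed in either direction, where 0.00672% of all genes rose and 0% fell, and at an unadjusted limma p under 0.05 the count was 0 higher and 9 lower, where 12.8% of all genes lay under it in either direction. All KO libraries then lay below all control libraries for 24 of the 79, where this held for 7.69% of all genes, and above them for 0, where this held for 8%.

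Without the library labelled SVZ KO a the ratio of summed means was 1.00 from own rows and 0.95 with copies, and all KO libraries lay below all control libraries for 16 of the 79 (25 with copies), where this held for 19.0% of all genes, and above them for 3 (3 with copies), where this held for 30.9%. The median over the 79 was then -0.01 (-0.04 with copies), and 1 gene, Rpl37 of the large subunit, fell, while 0 rose, where 4.54% of all genes fell and 4.42% rose in that fit. Rpl37 had 1.87, 2.03 and 2.35 FPKM in SVZ KO libraries, against 3.46, 4.29 and 5.52 FPKM in SVZ control libraries, and its log2 difference without library a was -0.75 (SE 0.17, limma adjusted p = 0.044). Its copy held 97.4% of the level of the pair, and together they averaged 115 ± 2.62 FPKM in SVZ KO and 124 ± 25.01 FPKM in SVZ control (SD, n = 3 each; log2 difference -0.09, limma adjusted p = 0.82 with all libraries). Rps28, the gene of lowest SVZ difference from own rows, had 2.55, 3.92 and 3.31 FPKM in SVZ KO libraries, against 7.98, 3.96 and 8.69 FPKM in SVZ control libraries (log2 difference -0.84, SE 0.26, limma adjusted p = 0.37 with all libraries). With copies, which held 96.6% of its level, that difference was 0.01, and the lowest was that of Rpl36a at -0.33 (limma adjusted p = 0.36).

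SVZ control library a came from a female mouse by Xist, and the other 5 SVZ libraries from male mice. Without that library the SVZ median over the 79 was -0.13, with 15 positive and 0 passing, where 0% of all genes rose or fell. A term for sex takes this same library out of the comparison, so that fit gave the same differences by construction. In the SVZ, sex cannot be told apart from that library.

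The genes that rose in the DG had SVZ differences on both sides of 0. Rpl18 averaged 24.6 ± 6.46 FPKM in SVZ KO and 21.3 ± 3.41 FPKM in SVZ control, and Rpl23 averaged 14.1 ± 3.83 FPKM in SVZ KO and 11.5 ± 0.59 FPKM in SVZ control (SD, n = 3 each). Rplp2 averaged 8.73 ± 0.50 FPKM in SVZ KO and 8.87 ± 2.79 FPKM in SVZ control (SD, n = 3 each). Rps19 and Rpl7 had negative SVZ differences of -0.10 and -0.28 on the log2 scale. Rpl7 had 31.9, 42.3 and 38.9 FPKM in SVZ KO libraries, against 47.5, 46.8 and 43.1 FPKM in SVZ control libraries, all KO values below all control values (limma adjusted p = 0.40). Without the library labelled SVZ KO a the SVZ differences were 0.38 for Rpl18, 0.20 for Rpl23, 0.06 for Rplp2, -0.16 for Rps19 and -0.17 for Rpl7, and 0 of these passed.

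Whether KO and control differed by more in the DG than in the SVZ was tested as an interaction over all 12 libraries. The DG difference minus the SVZ difference was positive for 77 of the 79 genes, with a median of 0.63, against 0.06 over all 14914 genes tested. At an unadjusted limma p under 0.05, 55 of the 79 were positive and 0 negative, where 15.96% of all genes lay under it in either direction. None passed at an adjusted p under 0.05, where 0.00671% of all genes passed as higher in the DG and 0.0268% as lower. Rpl26 and Rpl7 were among the closest, each with a limma adjusted p of 0.0502. Rpl26, named here for its value after it was seen, had 59.0, 90.9 and 58.7 FPKM in DG KO libraries, against 29.2, 30.2 and 23.0 FPKM in DG control libraries, and 34.2, 34.8 and 35.7 FPKM in SVZ KO libraries, against 39.4, 42.9 and 41.4 FPKM in SVZ control libraries. Its groups did not overlap in either tissue, higher in DG KO and lower in SVZ KO, with an interaction of 1.52 (SE 0.22). With copies, which held 68.2% of its level, its DG difference was 0.70 against 1.29 from own rows, and its interaction was 0.97 (limma adjusted p = 0.053). Without the library labelled SVZ KO a, 3 of the 79 passed, among them Rpl26 and Rpl7 (limma adjusted p = 0.038 and 0.034), where 0.181% of all genes passed as higher in the DG and 0.248% as lower. Without DG KO library a 16 of the 79 passed as higher in the DG, where 1.08% of all genes did and 0.651% passed as lower. With copies the interaction was positive for 78 of the 79, with a median of 0.58, and none passed, where 0.00682% of all genes passed as higher in the DG and 0.0273% as lower.

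**Figure D4:**
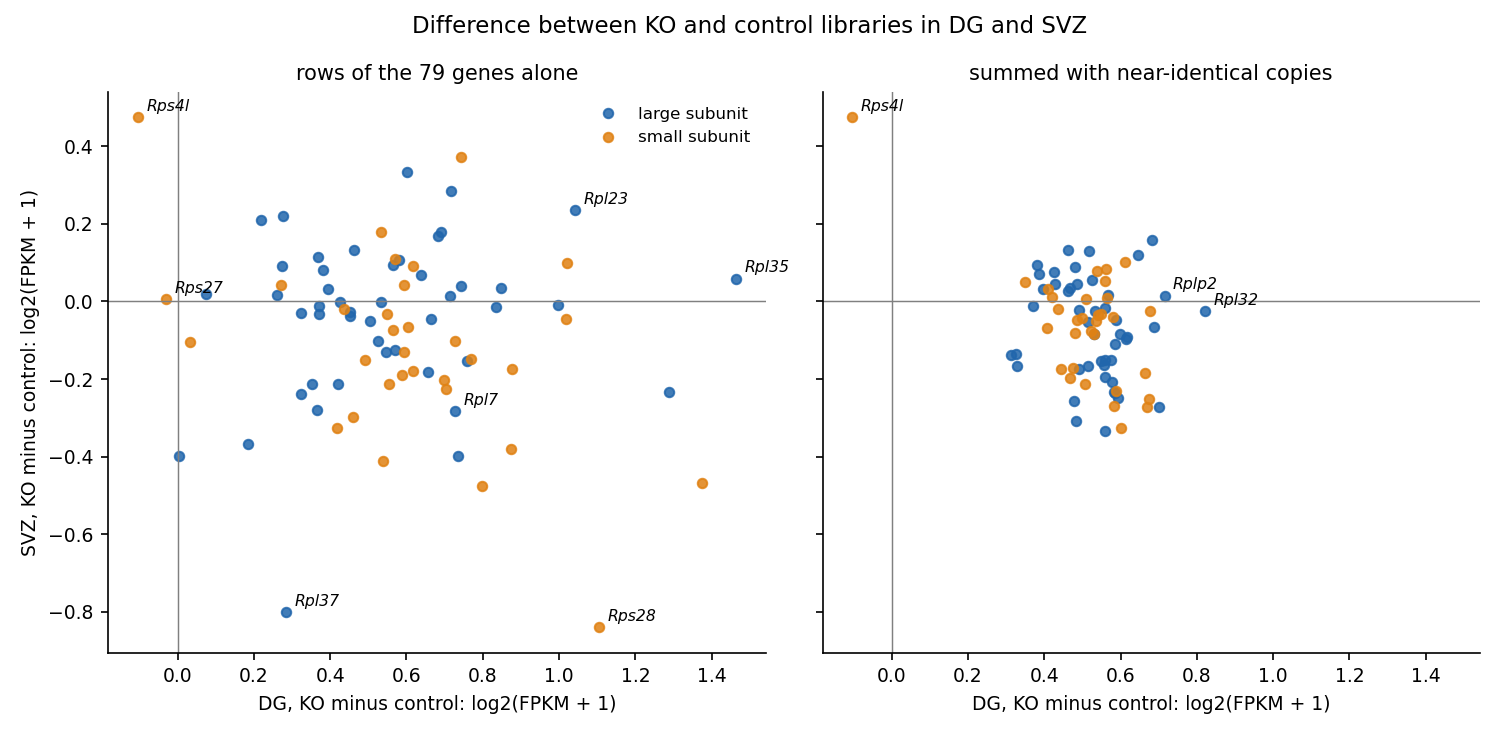
Difference between KO and control in the DG (horizontal axis) and SVZ (vertical axis) for each of the 79 genes, in log2(FPKM + 1), from own rows (left) and with near-identical copies (right). In both panels nearly all points lie right of 0, and they fall on both sides of 0 vertically; with copies they draw together, and Rps4l stands apart.

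The rest of the translation machinery was described by lists. Of 10 such lists, chosen by function or name, only the RNA polymerase I machinery had a member past the threshold in the DG, and none had one in the SVZ with all libraries. Among other genes with TOP mRNAs, 19 of 19 were positive in the DG, with a median log2 difference of 0.31. In 13 of the 19 all DG KO libraries lay above all DG control libraries, where this held for 25.9% of all genes. In the SVZ 3 of the 19 were positive, with a median of -0.08. Among them Eef1a1, the elongation factor that brings tRNAs to the ribosome and the most abundant of the list, averaged 935 ± 98.3 FPKM in DG KO and 747 ± 71.3 FPKM in DG control (SD, n = 3 each; limma adjusted p = 0.20). The 7 elongation factors had a DG median of 0.13, with 6 positive, and the 37 initiation factors had 0.13, with 32 positive. Both of these lists share members with the TOP list, among them Eef1a1 and Pabpc1, so neither is a separate set. Their most abundant members were Eef1a1 and Eif4a2, an RNA helicase of the cap-binding complex, with 128 ± 6.66 FPKM in DG KO and 140 ± 12.9 FPKM in DG control (SD, n = 3 each).

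Genes that make ribosomes showed smaller differences than the ribosomal proteins. The 45 assembly factors had a DG median of 0.13, with 35 positive. They include Npm1, which is also on the TOP list. All 15 genes of the RNA polymerase I machinery were positive, with a median of 0.22. Of these Polr1d, a subunit shared by RNA polymerases I and III, rose to 27.7 ± 1.18 FPKM in DG KO, against 19.0 ± 1.13 FPKM in DG control (SD, n = 3 each; log2 difference 0.52, SE 0.08, limma adjusted p = 0.048). The 8 chaperones of ribosomal proteins had a median of 0.08, and 17 genes of the mTOR pathway and of TOP mRNA control had 0.05. Nap1l1, listed with the chaperones, is on the TOP list too. The 78 mitochondrial ribosomal proteins had a DG median of 0.17, with 71 positive, and the 82 subunits of the respiratory chain had 0.17, with 61 positive. Their most abundant members, Mrps21 and Cox4i1, averaged 77.7 ± 3.97 and 551 ± 31.5 FPKM in DG KO and 58.0 ± 4.80 and 474 ± 53.3 FPKM in DG control (SD, n = 3 each). The list of paralogs outside the naming rule had a DG median of 0.33, with 7 of 7 positive, the highest median of the 10 lists. Its SVZ median was -0.08. It is not made of paralogs alone, since it holds Rps19bp1, which does not encode a ribosomal protein. It is not a separate set either, since it holds copies summed above with their genes, among them Rpl10-ps3 with Rpl10 and Rpl9-ps6 with Rpl9. In the SVZ the medians of all 10 lists lay between -0.08 and 0.13. Without the library labelled SVZ KO a they lay between -0.05 and 0.22, and 3 genes of the mTOR list, 3 mitochondrial ribosomal proteins, 1 assembly factor and 1 respiratory chain subunit rose, where 4.42% of all genes rose.

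**Figure D5:**
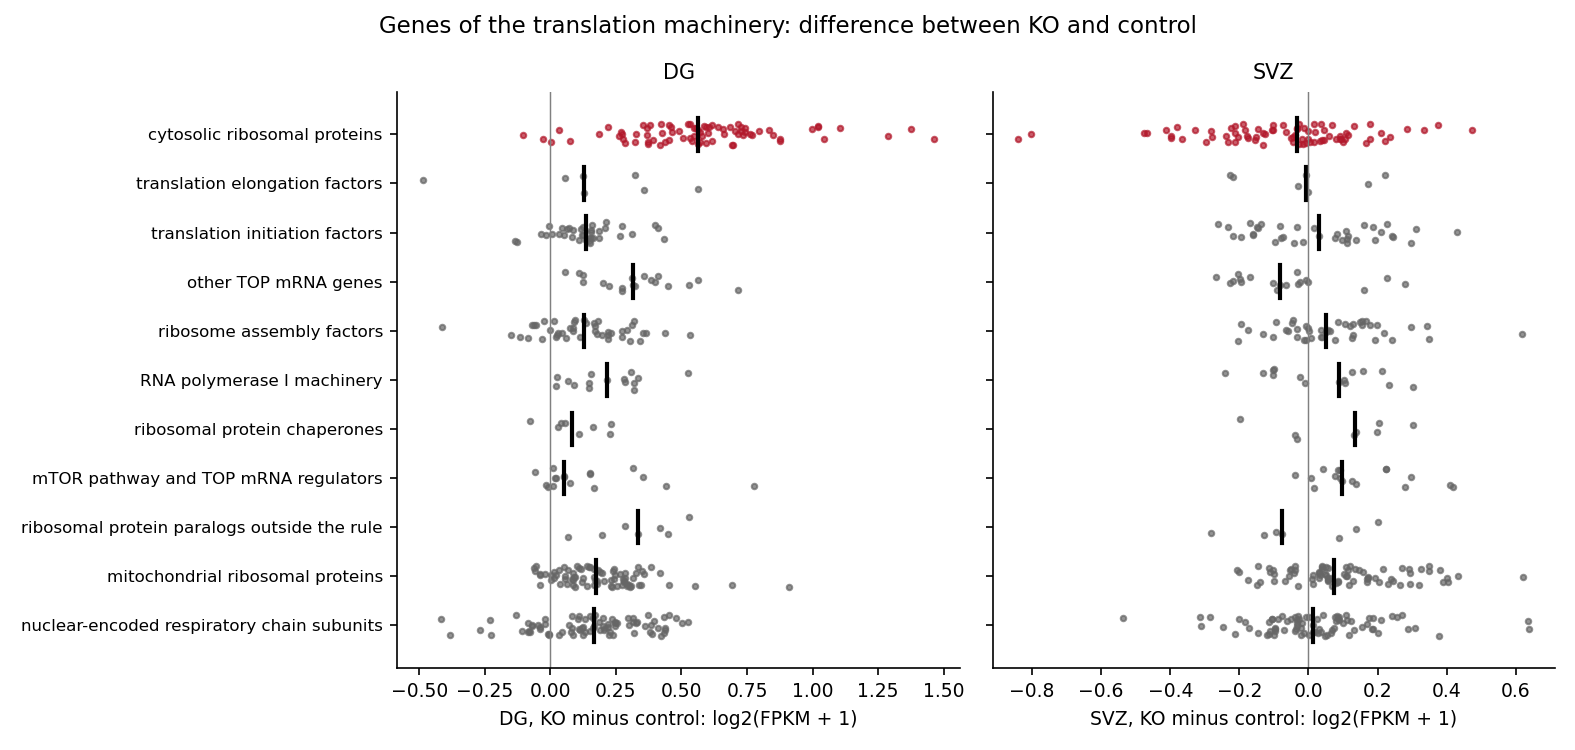
Difference between KO and control in log2(FPKM + 1) in the DG (left) and SVZ (right) for the 79 ribosomal protein genes (red) and for 10 lists of related genes (grey); each point is a gene and each bar the list's median. The DG median is 0.56 for the ribosomal protein genes and at most 0.33 for the other lists.

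Cell type markers were summed in the DG libraries, and their part in the difference of the ribosomal protein genes was not tested. Some of these sums lay apart between KO and control libraries, and others overlapped. Over all genes tested in the DG, 0.337% rose and 0.363% fell at a limma adjusted p under 0.05. Sums of neuroblast, microglia and endothelial markers overlapped, with 0 passing. Markers of mature neurons summed to 1075 to 1496 FPKM in DG KO libraries, against 1956 to 2208 FPKM in DG control libraries, and 2 of the 12, Eno2 and Grin1, fell (limma adjusted p = 0.028 and 0.048). Of these 12, 0 were positive, with a median log2 difference of -0.57. Markers of neural stem cells and radial glia summed to 563 to 1000 FPKM in DG KO libraries, against 323 to 462 FPKM in DG control libraries, with 8 of 12 tested positive and 0 passing. Markers of cycling cells summed to 34.1 to 53.4 FPKM in DG KO libraries, against 26.0 to 33.4 FPKM in DG control libraries, with 11 of 11 tested positive and 0 passing. Markers of astrocytes summed to 359 to 398 FPKM in DG KO libraries, against 491 to 648 FPKM in DG control libraries, and 1 of the 10, Aldoc, fell. Of these 10, 3 were positive, with a median of -0.36. Markers of oligodendrocyte precursors summed to 226 to 340 FPKM in DG KO libraries, against 263 to 323 FPKM in DG control libraries; 5 of the 9 were positive, with a median of 0.07, while Gpr17 and C1ql1 fell. Markers of myelinating oligodendrocytes summed to 135 to 140 FPKM in DG KO libraries, against 250 to 2461 FPKM in DG control libraries, with Opalin near 0 in DG KO. Of the 11 tested, 1 was positive, with a median of -1.62 and 0 passing. Markers of blood summed to 1446 to 4125 FPKM in DG KO libraries, against 779 to 1217 FPKM in DG control libraries, with 5 of 5 tested positive and Slc4a1 near 0. Markers of meningeal and vascular fibroblasts summed to 160 to 174 FPKM in DG KO libraries, against 63.6 to 163 FPKM in DG control libraries, with 10 of 10 positive, a median of 0.82 and 0 passing. Markers of ependymal cells summed to 13.1 to 32.0 FPKM in DG KO libraries, against 7.53 to 15.6 FPKM in DG control libraries, with 6 of 6 tested positive, a median of 0.81 and 0 passing. Choroid plexus markers summed to 23.1, 1996 and 12.1 FPKM in DG KO libraries, against 626, 139 and 16.7 FPKM in DG control libraries. Striatal markers summed to 63.6, 357 and 765 FPKM in DG KO libraries, against 81.9, 809 and 50.2 FPKM in DG control libraries, so single libraries of both groups stood apart. Granule neuron markers, which define the dentate gyrus, summed to 50.4 to 62.6 FPKM in DG KO libraries, against 69.98 to 105 FPKM in DG control libraries, with 0 of 8 tested passing. Of these 8, 0 were positive, with a median of -0.48.

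Transcript length moved with the DG difference as well. The 79 genes had a median length of 764 bases in the DG. Other genes of 600 to 1000 bases with at least 10 FPKM had a median log2 difference of 0.19 in the DG, with 79.3% positive, against -0.03 and 45.3% for genes of 4000 bases or more. In the SVZ the same 2 classes had 0.02 and 0.01. The share of the ribosomal protein signal in transcripts annotated as retained introns, one sign of immature RNA, was 9.97% ± 0.58 in DG KO and 9.76% ± 0.39 in DG control (SD, n = 3 each). Depth was greater in every DG KO library than in any DG control library, by the estimate above. These values were not tested against the difference either.

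Transcript by transcript, the authors' deposited table for the DG listed 272 rows of the 79 genes, of which 96 had a p under 0.05 with KO higher and 0 with KO lower (35.3% and 0%), against 8.96% and 5.38% of all 40483 rows. Of these DG rows, 3 had a step-up FDR under 0.05 in the authors' deposited table, as did 13 of all 40483 rows. For the SVZ the authors' deposited table listed 5 rows with KO higher and 9 with KO lower (1.84% and 3.31%), against 5.21% and 4.86% of all rows, and 0 under an FDR of 0.05.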

How the data were processed

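Poly(A)+ RNA was sequenced in 12 libraries, 3 per group. The submitters' processing notes name CASAVA 1.8.4, TopHat2 2.1.0, Partek and GRCm38 (mm10) without saying what each did; the sources used here give neither the strand of the kit nor how multiply mapped reads were treated. The authors deposited FPKM values per transcript with TMM scaling, in 1 table per tissue, and tables of p-values with step-up FDR. The authors' deposited fold values are a signed score, control over KO, negative where KO is higher. FPKM and comparison tables were joined on transcript (all 40483 rows of each tissue) and FPKM were summed per gene. limma 3.58.1 (R 4.3.3) was run on log2(FPKM + 1) for genes whose mean over the 6 libraries of a tissue reached 0.5 FPKM, with an intensity trend, Benjamini-Hochberg adjustment over all genes tested and a threshold of 0.05. The interaction used all 12 libraries. The log2 scale with a pseudocount of 1 understates changes of low genes. limma was tested on simulated data.

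Copies were found with blastn 2.17.0 among GENCODE M21 transcripts and credited to the gene they match best. Depth was estimated from low values times transcript length, of which 54.6 to 62.4% per library lay within 0.1 of a whole read, where chance gives 20%; since the rest did not, no count test was run. Named genes were those past the threshold, the stalk genes, Rpsa, the 3 highest and 3 lowest in level, the extremes of difference in each tissue, and paralogs; Rpl26, Rpl32, Rpl36a, Rpl37 and Gm9794 were added after their values were seen. Some genes past the threshold are not reported here by name. Of other lists, genes past the threshold and the most abundant were named. Members, lists and rules were chosen with earlier results of these data known. Alternatives were another pseudocount, other filters, median centring, quantile normalization, 1 transcript per gene, each library left out, sex as a term and summing with copies.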

Additional observations from a re-analysis of the deposited data

How the results depend on the processing

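The 7 ribosomal protein genes called in the DG became 11 with a minimum of 2 FPKM, all 7 among them. Over all genes the share that rose went from 0.337% to 1.13%, and 0.858% fell with that minimum. With copies summed 1 was called, where 0.185% of all genes rose and 0.277% fell. With sex as a term 0 were called, and calls over all genes were 0 higher and 3 lower, against 52 and 56 without the term. The DG median of 0.56 and the 77 positive could not change under that term, with 1 female library in each DG group. Without single libraries the DG count was 0 to 0, where 0% of all genes rose and at most 0.0194% fell. In these fits Rpl18 kept a log2 difference of 0.66 to 0.72. The SVZ count of 0 became 0 to 1 without single libraries, the 1 being Rpl37 without the library labelled SVZ KO a. In that fit 4.54% of all genes fell and 4.42% rose. The interaction count of 0 became 3 with a minimum of 2 FPKM, 1 with median centring and 2 with sex as a term. Over all genes, 0.0516% passed as higher in the DG and 0.0602% as lower with that minimum. With median centring these shares were 0.0201% and 0.0402%, and with sex as a term 0.0469% each way. Without single libraries the count was 0 to 16, the 16 without DG KO library a, where the shares were 1.08% and 0.651%. The DG median of 0.56 was 0.49 with median centring. Of 610 values of named genes under alternatives, 0 changed sign past the threshold, 58 lost their call and 3, all of Rplp0 in the DG, gained one. Sex as a term and copies were chosen after the data were seen. No paired analysis was possible because the columns carry no replicate numbers. Levels under about 2 FPKM, such as those of Rps27, Rpl9 and Rps13, rest on few reads credited to the genes' own rows, which limits what their DG differences can show. Copies held 99.5%, 99.5% and 98.9% of the summed level of these 3 genes.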
